A study of Mus musculus with 22 samples.

Results

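Wnt proteins are secreted ligands that bind Frizzled receptors and, for the canonical branch, the co-receptors Lrp5 and Lrp6; the bound complex recruits the scaffold protein Axin, so that β-catenin is no longer destroyed and enters the nucleus to act with TCF/LEF factors. R-spondins keep Frizzled receptors on the cell surface and so amplify the signal, whereas Dickkopf proteins block the Lrp co-receptors and secreted Frizzled-related proteins (Sfrp) bind the ligands or receptors outside the cell. In the forebrain these genes are known for patterning the cortex, for dendrite and synapse growth and for forming the vessels of the brain. The set described here holds the ligands, receptors, secreted modulators and Axin scaffolds of this pathway. It was defined by a rule on gene names, chosen with earlier results of these data known, so its shares of calls are a description. The rule takes every Wnt and Fzd gene, the genes named Dkk with a number and Dkkl1, the Sfrp genes, the R-spondins, Lrp5, Lrp6, Axin1 and Axin2. Of 20565 genes in the tables, 42 met this rule, namely 17 Wnt ligands, 10 Frizzled receptors, 2 Lrp co-receptors, 4 R-spondins, 3 Dickkopf genes (Dkk2, Dkk3 and Dkkl1), 4 Sfrp genes (Sfrp1, Sfrp2, Sfrp4 and Sfrp5) and 2 Axin scaffolds.

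Bulk RNA sequencing was carried out on 22 mice, each its own library. All animals carried floxed Smc3, the gene of a core cohesin subunit, and all received tamoxifen by gavage; the labels describe them as 8 weeks old and sampled 6 weeks after tamoxifen. The groups were 5 male WT and 5 female WT animals, which lacked the Cre transgene (Camk2a-cre/ERT2-), and 6 male cKO and 6 female cKO animals, which carried it (Camk2a-cre/ERT2+). The Camk2a promoter drives Cre in forebrain excitatory neurons, whereas the RNA came from whole tissue with glia, vessels and other neurons. WT animals had no Cre, so an effect of Cre itself and an effect of Smc3 deletion cannot be told apart. The series title concerns a sex-specific role of forebrain neuronal SMC3 in anxiety-like behaviour, and the genotypes were compared within each sex.

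Libraries held 12771354 to 16896239 counts, so that 3 counts correspond to 0.188 to 0.237 CPM, the read count scaled to library size. Smc3 itself was higher in the libraries labelled cKO, at 142 ± 16.1 CPM (SD, n = 6) in male cKO and 82.5 ± 10.1 CPM (n = 5) in male WT, and at 130 ± 10.1 CPM (n = 6) in female cKO and 74.4 ± 6.37 CPM (n = 5) in female WT (adjusted p = 0.00541 and 9.17e-05, edgeR quasi-likelihood test). The summed counts of the gene do not show a deletion, and the directions below rest on the labels. Sample titles name the hypothalamus and the tissue field the prefrontal cortex. Summed markers of cortex over hypothalamus were 4400 to 9510 CPM over all libraries, and summed hypothalamus markers were 10.8 to 74.8 CPM. Of 13 upper-layer excitatory neuron markers, 12 had a negative fold change in each sex, and none passed in males and 4 in females. Their summed median was 1920 CPM in male WT, 1320 CPM in male cKO, 1750 CPM in female WT and 1120 CPM in female cKO. Of 16 deep-layer markers, 10 were negative in males (1 passed) and 14 in females (4 passed), with summed medians of 1000 and 857 CPM in male WT and cKO and of 1060 and 864 CPM in females. Of the 15 cortex markers, 10 were negative in males and 14 in females, with summed medians of 6800 and 6400 CPM and of 6970 and 6060 CPM. In whole tissue, fewer cells of a type and less RNA per cell cannot be told apart.

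Scaled by length, the members spanned a wide range of levels. Values here are mean CPM per kilobase of merged exons (GENCODE M21, GRCm38), averaged over the male WT and female WT groups, and are levels rather than differences. Dkk3, a Dickkopf relative abundant in cortical neurons, stood alone at 116, followed by Fzd3, a receptor of axon guidance, at 10.9. Wnt7b, a canonical ligand made by cortical neurons, was the most abundant ligand at 9.96, ahead of Wnt4 at 6.50, Wnt9a at 5.65 and Wnt7a at 5.20. Dkkl1 reached 9.36, Axin1 7.24, Axin2 6.09, Rspo2 5.31, Rspo3 4.76 and Sfrp1 4.56. Neighbours in this order were close: Wnt7b held 8.25 in male WT and 11.7 in female WT, and Dkkl1 8.31 and 10.4, a gap smaller than the spread between libraries of a group. At the low end Wnt1, Rspo4, Wnt16, Wnt11, Wnt9b and Wnt8b lay between 0.241 and 0.00966. Wnt8b had at most 3 counts in any WT library, and its highest count in any library was 13.

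**Figure D1:**
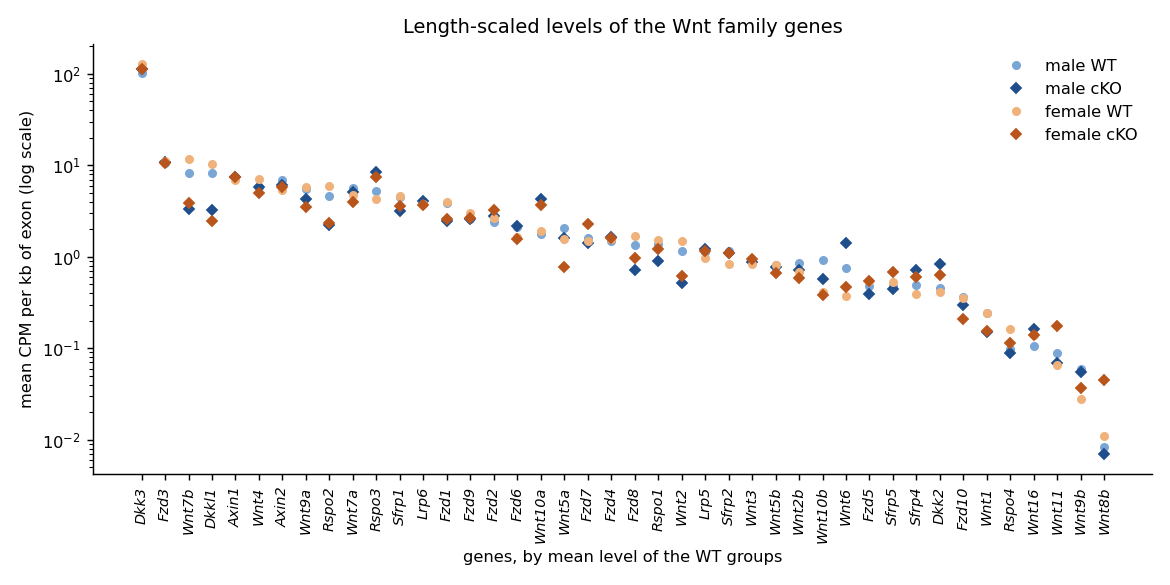
Mean CPM per kilobase of exon (log scale) of all 42 genes in the 4 groups, ordered by the mean of the WT groups (circles WT, diamonds cKO). Dkk3 lies far above the rest at 116, and the cKO diamonds of Wnt7b, Dkkl1, Rspo2, Fzd8 and Wnt2 lie below their WT circles in both sexes.

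After a filter on low counts, 36 members were tested in each sex. Rspo4, Wnt1, Wnt11, Wnt16, Wnt8b and Wnt9b were too low in both, and 38 members passed in the fit of all 22 libraries, where Wnt11 and Wnt16 also passed. In males 2 members fell, Wnt7b and Fzd8, and none rose at an adjusted p under 0.05; by edgeR 10 of 36 had an unadjusted p under 0.05, as did 9.49% of all genes. The share called among members was 5.56%, and over all 16098 genes tested it was 0.584%. In females 7 members fell (Wnt7b, Dkkl1, Wnt5a, Fzd8, Wnt2, Rspo2 and Fzd1) and 1 rose (Rspo3), 22.2% of members beside 3.37% of all 16123 genes tested. The mean of both within-sex differences, which uses the same libraries and is no independent evidence, called 6 members lower (Wnt7b, Dkkl1, Fzd8, Fzd1, Rspo2 and Wnt2) and 2 higher (Rspo3 and Wnt10a), 21.1% of members beside 7.13% of all 16855 genes. Calls over all genes were mostly falls too, 81 of 94 in males and 443 of 543 in females. Ranges of cKO and WT libraries were apart for 3 members in males (Wnt7b, Fzd8 and Fzd1, all lower), 8.33% beside 2.1% of all genes tested. In females they were apart for 6 (Wnt7b, Dkkl1, Wnt5a, Fzd8 and Fzd1 lower, Rspo3 higher), 16.7% beside 3.65%.

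Most members did not pass. The median log2 fold change over the members, cKO minus WT, was -0.0946 in males and -0.0929 in females, beside 0.00845 and 0.0109 over all genes tested. Of the 36 members tested in both sexes, 26 (72.2%) had the same sign in both, close to the 71.1% of all 15787 genes tested in both. The male count rested on few libraries: it was 1 without any of WT 3, 4, 5 and 6 or cKO 9, 10, 12, 13 and 14, and 3 without cKO 8. DESeq2 called 5 members in males. In females the count was 5 when all 4 groups shared a fit.

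**Figure D2:**
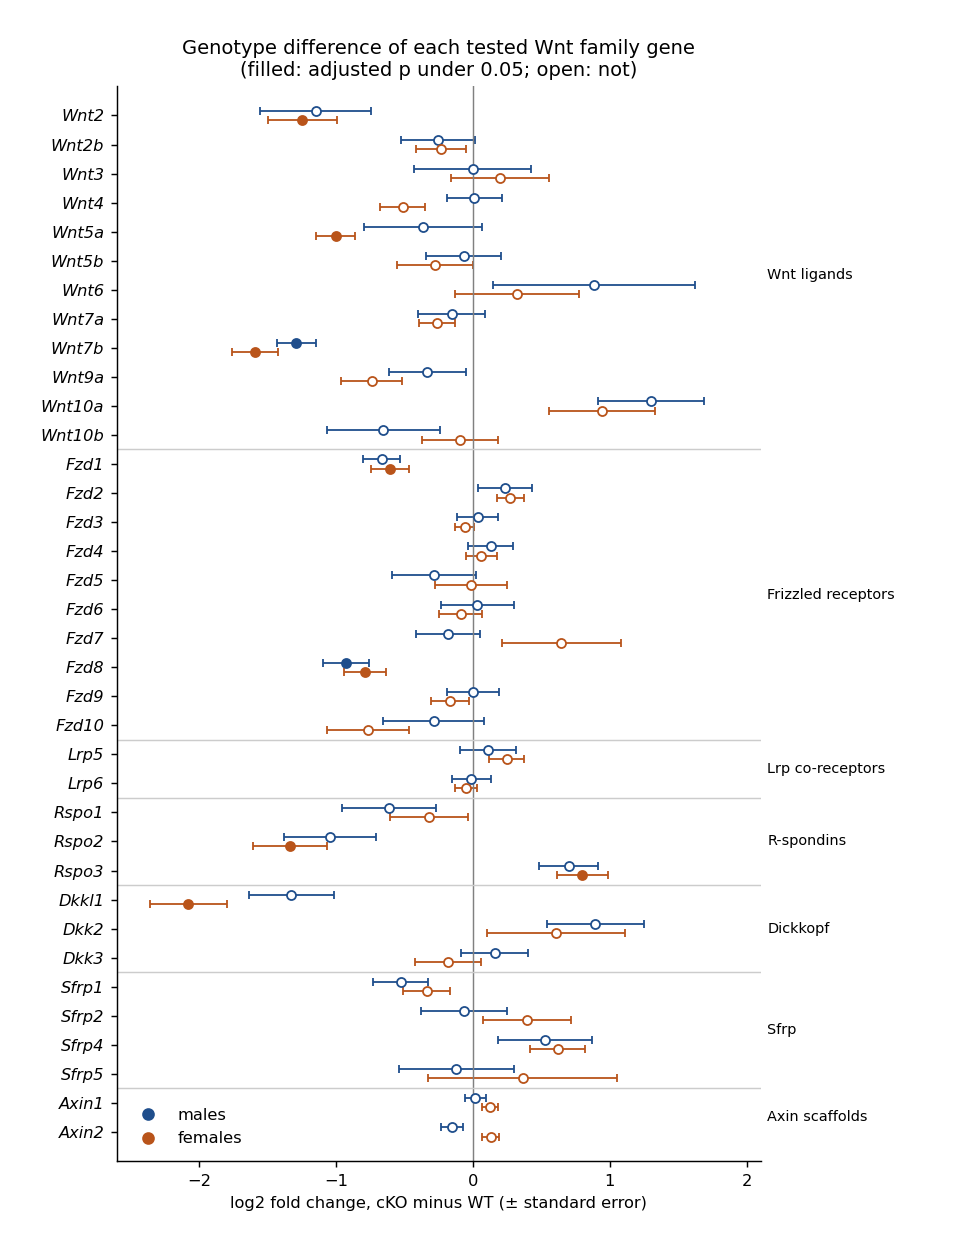
Log2 fold change (cKO minus WT, ± standard error) of each tested gene in males (blue) and females (orange), grouped by role, with filled points at an adjusted p under 0.05. Wnt7b and Fzd8 are filled in both sexes, at -1.29 and -0.93 in males and -1.59 and -0.79 in females. The other points run from -2.08 (Dkkl1 in females) to 1.30 (Wnt10a in males).

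Among the ligands, Wnt7b showed the firmest difference. This canonical ligand acts on neuronal dendrites and, in the embryo, on the endothelial cells of brain vessels. Male WT libraries held 32.8, 34.5, 39.8, 43.8 and 51.4 CPM, and male cKO libraries ran from 11.7 through a median of 17.4 to 18.4 CPM. Female WT libraries held 40.9, 45.7, 53.2, 61.3 and 84.6 CPM, and female cKO libraries ran from 15.3 through 18.7 to 22.4 CPM. Every cKO library lay below every WT library of its sex. Wnt7b fell by 1.29 on the log2 scale in males (SE 0.141, adjusted p = 0.00287) and by 1.59 in females (SE 0.169, adjusted p = 0.000236), and the adjusted p stayed under 0.05 in all 23 alternative fits in males and all 22 in females. An antisense RNA gene, AU022754, shares 324 exon bases with Wnt7b in GENCODE M21, 6.61% of the exons of Wnt7b, and the strand setting of the counting is not given in the sources used here. AU022754 fell too, from a median of 2.61 to 0.556 CPM in males (adjusted p = 0.034) and from 3.02 to 0.644 CPM in females (adjusted p = 0.00372), and reads of this pair cannot be assigned with certainty.

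Wnt5a, the ligand best known for β-catenin-independent signalling, differed in females. WT values in females were 10.9, 11.3, 11.4, 11.9 and 15.8 CPM, and female cKO libraries ran from 4.07 through 6.47 to 6.93 CPM, with no overlap. Wnt5a fell by 1.002 on the log2 scale in females (SE 0.143, adjusted p = 0.00194), a call that was lost when all 4 groups shared a fit (adjusted p = 0.188). Male WT libraries held 8.16, 12.5, 15.9, 19.8 and 24.9 CPM, and male cKO libraries ran from 5.75 through 8.48 to 31.4 CPM. Male ranges overlapped, and the log2 fold change was -0.36 (SE 0.429, adjusted p = 0.917). With oligodendrocyte and cortex markers in the fit the male change was -0.53 (adjusted p = 0.0285). Over both sexes the change was -0.68 (adjusted p = 0.0947), and it passed in 6 of 33 alternatives. The highest male cKO values came from cKO 8, at 31.4 CPM, and cKO 9, at 14.5 CPM, and the highest male WT value from WT 6. The summed markers of leptomeningeal fibroblasts, cells of the brain's covering, were 339 CPM in cKO 8 and 437 CPM in cKO 9, and 132 to 184 CPM in the other male cKO libraries. In male WT they were 267 CPM in WT 6 and 114 to 195 CPM in the others; their part in the result was not tested. Wnt5a shares 358 exon bases with the antisense gene Gm2670, which stayed at or below 0.79 CPM.

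Wnt2, a canonical ligand, was scarce. The female WT values were 1.93, 3.10, 3.74, 3.77 and 4.12 CPM, and female cKO libraries ran from 0.95 through 1.27 to 2.25 CPM. Wnt2 fell by 1.25 on the log2 scale in females (SE 0.25, adjusted p = 0.0151), with overlap of 1 WT library and the highest cKO library. In males the WT libraries held 2.12 to 3.23 CPM and the cKO libraries 0.197 to 2.33 CPM, the lowest of them at 3 counts, and the log2 fold change of -1.15 did not pass (SE 0.408, adjusted p = 0.339). The female call was lost when all 4 groups shared a fit or when upper-layer markers entered the fit (adjusted p = 0.149).

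Wnt10a, a canonical ligand studied mostly in teeth, skin and fat, moved the other way. Male WT libraries held 1.60, 3.13, 3.60, 6.33 and 7.06 CPM, and male cKO libraries ran from 6.78 through 9.04 to 19.8 CPM. Female WT libraries held 2.86, 2.90, 3.48, 6.53 and 7.74 CPM, and female cKO libraries ran from 3.14 through 8.65 to 15 CPM. The ranges overlapped in both sexes. Neither sex passed by itself in edgeR without a covariate (log2 fold change 1.30, SE 0.388, adjusted p = 0.221 in males, and 0.94, SE 0.386, adjusted p = 0.248 in females). DESeq2 called Wnt10a in males (adjusted p = 0.0391). Over both sexes Wnt10a rose by 1.12 on the log2 scale (SE 0.293, adjusted p = 0.0209), a call that all 33 alternatives kept.

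Wnt9a, a ligand of limb and joint development, had an unadjusted p under 0.05 over both sexes but did not pass (log2 fold change -0.54, adjusted p = 0.0917). Its female WT libraries held 12.2, 13, 19.5, 20.7 and 31.5 CPM, and its female cKO libraries ran from 8.70 through 10.9 to 15.1 CPM, so that the ranges overlapped. The female log2 fold change was -0.74 (SE 0.223, adjusted p = 0.1), and it passed with DESeq2 (adjusted p = 0.0297), limma voom (0.0294) and without WT 16 (0.0401). Without male WT 1 the value over both sexes passed (0.0393). In males WT ran from 9.53 to 24 CPM and cKO from 8.23 to 18.8 CPM. The remaining tested ligands, Wnt2b, Wnt3, Wnt4, Wnt5b, Wnt6, Wnt7a and Wnt10b, had log2 fold changes from -0.65 to 0.88 in males and from -0.51 to 0.32 in females, with adjusted p of at least 0.721 and 0.124. Wnt7a, the close relative of Wnt7b, had a log2 fold change of -0.16 in males and -0.26 in females (adjusted p = 0.947 and 0.357). With oligodendrocyte and cortex markers in the fit Wnt7a passed in females (-0.41, adjusted p = 0.0382) and over both sexes (-0.31, adjusted p = 0.0139). Over both sexes Wnt6 passed with upper-layer markers (1.93, adjusted p = 0.0231) and Wnt10b with limma voom (-0.60, adjusted p = 0.0498). Summed over all 17 ligands, female cKO libraries held 80.7 to 101 CPM and female WT libraries 120 to 202 CPM. Male cKO libraries held 95.8 to 122 CPM and male WT libraries 114 to 159 CPM. Wnt7b made up a large part of these sums, which describe CPM and not molecules per gene length.

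Of the 10 receptors, Fzd8 was called lower in both sexes and Fzd1 in females. Fzd8, a receptor that pairs with Lrp6 in canonical signalling, held 6.56, 7.12, 7.69, 8.89 and 10.5 CPM in male WT and ran from 3.31 through 4.15 to 5.35 CPM in male cKO. In females it held 8.29, 8.63, 9.85, 10.9 and 12.3 CPM in WT and ran from 4.14 through 5.51 to 7.22 CPM in cKO. The ranges were apart in both sexes. Fzd8 fell by 0.93 on the log2 scale in males (SE 0.17, adjusted p = 0.0353) and by 0.79 in females (SE 0.151, adjusted p = 0.0122). The male call was kept in 1 of 11 fits that left out a library, that without cKO 8, and the adjusted p reached 0.117; the female call was kept in all 22 alternatives.

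Fzd1, a canonical receptor, held 13.6, 15.4, 16.6, 16.8 and 19.3 CPM in male WT and ran from 8.00 through 10.2 to 13.2 CPM in male cKO. In female WT it held 14.7, 15.6, 16, 16.5 and 20.3 CPM, and female cKO libraries ran from 8.01 through 11 to 13.7 CPM. No ranges overlapped within a sex. Fzd1 fell by 0.61 on the log2 scale in females (SE 0.139, adjusted p = 0.0301). The male log2 fold change of -0.67 lay just outside the threshold (SE 0.134, adjusted p = 0.0525). In males it passed in 9 of 23 alternatives, among them DESeq2 (adjusted p = 0.000808), limma voom (0.00678) and the shared fit of all 4 groups (0.0129). The female call was lost without WT 16, WT 19, cKO 20 or cKO 22 (adjusted p up to 0.0619). Over both sexes Fzd1 fell by 0.64 (SE 0.0984, adjusted p = 0.000223), a call that all 33 alternatives kept.

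Fzd2 and Fzd10 had an unadjusted p under 0.05 over both sexes without passing. Fzd2, a receptor used by Wnt5a, had a median of 8.78 CPM in male WT and 9.08 CPM in male cKO, and of 10 and 11.9 CPM in females (log2 fold change over both sexes 0.25, adjusted p = 0.216). In females Fzd2 passed with limma voom (0.33, adjusted p = 0.0407). Fzd10 was scarce, with medians of 1.20 and 0.866 CPM in males and 1.15 and 0.742 CPM in females (log2 fold change -0.53, adjusted p = 0.223). Fzd3, Fzd4, Fzd5, Fzd6, Fzd7 and Fzd9 had log2 fold changes from -0.29 to 0.13 in males and -0.17 to 0.64 in females, with adjusted p of at least 0.898 and 0.516. The co-receptors Lrp5 and Lrp6 ranged from -0.01 to 0.11 in males and from -0.05 to 0.25 in females (adjusted p of at least 0.961 and 0.386).

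The R-spondins split. Rspo2 held 11.4, 18.8, 22.5, 27.3 and 38.7 CPM in male WT and ran from 4.54 through 11.8 to 17.5 CPM in male cKO. In female WT it held 17.8, 20.5, 32.1, 32.5 and 50.1 CPM, and female cKO libraries ran from 8.20 through 10.9 to 19.5 CPM. Both sexes overlapped by a few libraries, and the lowest male WT value came from WT 1, whose summed cortex markers, 4400 CPM, were the lowest of any library. Rspo2 fell by 1.34 on the log2 scale in females (SE 0.269, adjusted p = 0.0153), and its male log2 fold change of -1.04 did not pass (SE 0.335, adjusted p = 0.28).

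Rspo3, the R-spondin linked to vessel growth in the mouse, rose. In female WT it held 12.2, 12.7, 13.2, 13.6 and 15 CPM, and female cKO libraries ran from 17.4 through 19.1 to 37.2 CPM, all above WT. Rspo3 rose by 0.80 on the log2 scale in females (SE 0.187, adjusted p = 0.0335), a call lost without WT 16, WT 18, WT 19, WT 25 or cKO 20 (adjusted p up to 0.0957) and when all 4 groups shared a fit (0.0606). Male WT libraries held 11.1, 14.8, 15.9, 18.6 and 20.2 CPM, and male cKO libraries ran from 15.5 through 26.8 to 34.1 CPM, with overlap (log2 fold change 0.70, SE 0.215, adjusted p = 0.24). Over both sexes it rose by 0.75 (SE 0.15, adjusted p = 0.0028), which all 33 alternatives kept. Rspo3 shares 404 exon bases with the antisense gene Gm48159, which was not found by its gene ID among the deposited counts. Summed leptomeningeal fibroblast markers had medians of 136 CPM in male WT, 167 CPM in male cKO, 152 CPM in female WT and 163 CPM in female cKO, with ranges that overlapped (114 to 267, 132 to 437, 145 to 190 and 142 to 238 CPM), and 14 of 16 of these markers had a positive fold change over both sexes, of which 2 passed; their part in the rise was not tested. Rspo1 had a log2 fold change of -0.61 in males and -0.32 in females (adjusted p = 0.651 and 0.634). Over both sexes Rspo1 passed with upper-layer markers (-1.04, adjusted p = 0.00551) and with oligodendrocyte and cortex markers in the fit (-0.68, adjusted p = 0.0302).

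Dkkl1, a soluble relative of the Dickkopf proteins known mainly from mouse sperm, had the largest fold change of any tested member. Female WT libraries held 8.38, 11.5, 15.4, 15.8 and 30.8 CPM, and female cKO libraries ran from 2.89 through 3.69 to 5.18 CPM, all below WT. Dkkl1 fell by 2.08 on the log2 scale in females (SE 0.284, adjusted p = 0.00145). Male WT libraries held 4.40, 12.3, 14.2, 16.9 and 17.6 CPM, and male cKO libraries ran from 3.93 through 4.60 to 7.40 CPM. The male ranges overlapped through WT 1, and the male log2 fold change was -1.33 (SE 0.309, adjusted p = 0.098). It passed in 6 of 23 alternatives, among them DESeq2 (adjusted p = 0.00391), limma voom (0.0358), the shared fit of all 4 groups (0.028) and the fit without WT 1. Most upper-layer neuron markers had a negative fold change too, and with them in the fit the female log2 fold change was -1.17 (adjusted p = 0.0558).

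The other Dickkopf and Sfrp genes did not pass in edgeR with all libraries and no covariate. Dkk2, a blocker of the Lrp co-receptors, held 0.733, 1.60, 1.69, 1.90 and 2.50 CPM in male WT and ran from 1.24 through 3.67 to 4.36 CPM in male cKO. In females it ran from 0.708 to 3.07 CPM in WT and from 0.751 to 5.57 CPM in cKO, and the log2 fold change over both sexes was 0.75 (adjusted p = 0.201). With marker covariates it passed over both sexes in 4 fits, at 0.93 with oligodendrocyte (adjusted p = 0.0177), 1.12 with cortex (0.0172), 1.60 with upper-layer (0.00255) and 1.18 with oligodendrocyte and cortex markers (0.000648). Dkk3 varied between libraries of a group, with 437 ± 179 CPM in female WT (SD, n = 5) and 384 ± 99.1 CPM in female cKO (n = 6), and passed in neither sex (male adjusted p = 0.946, female 0.768). Over both sexes Dkk3 passed with oligodendrocyte and cortex markers in the fit (0.29, adjusted p = 0.0391). Sfrp1, which binds Wnt ligands, had medians of 20.9 and 13.3 CPM in male WT and cKO and of 20.5 and 16 CPM in females, with overlapping ranges (log2 fold change over both sexes -0.44, adjusted p = 0.059). Sfrp1 passed over both sexes in 11 of 33 alternatives, among them DESeq2 (adjusted p = 0.033), limma voom (0.0138) and fits without male WT 1, WT 4, cKO 8 or cKO 9 or female WT 25 or cKO 23. Sfrp4 had medians of 2.29 and 2.52 CPM in males and 1.61 and 2.42 CPM in females (0.57, adjusted p = 0.1). Over both sexes Sfrp4 passed in 3 of 33 alternatives. These were the fits with oligodendrocyte (adjusted p = 0.0404) or upper-layer markers (0.029) and the fit without male cKO 10. Sfrp2 and Sfrp5 had log2 fold changes from -0.12 to 0.39 over the sexes, with adjusted p of at least 0.606.

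Axin2 is both a scaffold of the destruction complex and a widely used readout of canonical Wnt signalling. It held 32.3 to 40.3 CPM in male WT, 30.2 to 37 CPM in male cKO, 25.7 to 30.7 CPM in female WT and 30.2 to 33.7 CPM in female cKO. Its log2 fold change was -0.15 in males and 0.13 in females (adjusted p = 0.632 and 0.354), and that of Axin1, the constitutive scaffold, was 0.02 and 0.12 (adjusted p = 0.991 and 0.325). Axin2 was read from 402 to 588 counts per library, and the standard error of its log2 fold change was 0.0811 in males and 0.0635 in females.

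**Figure D3:**
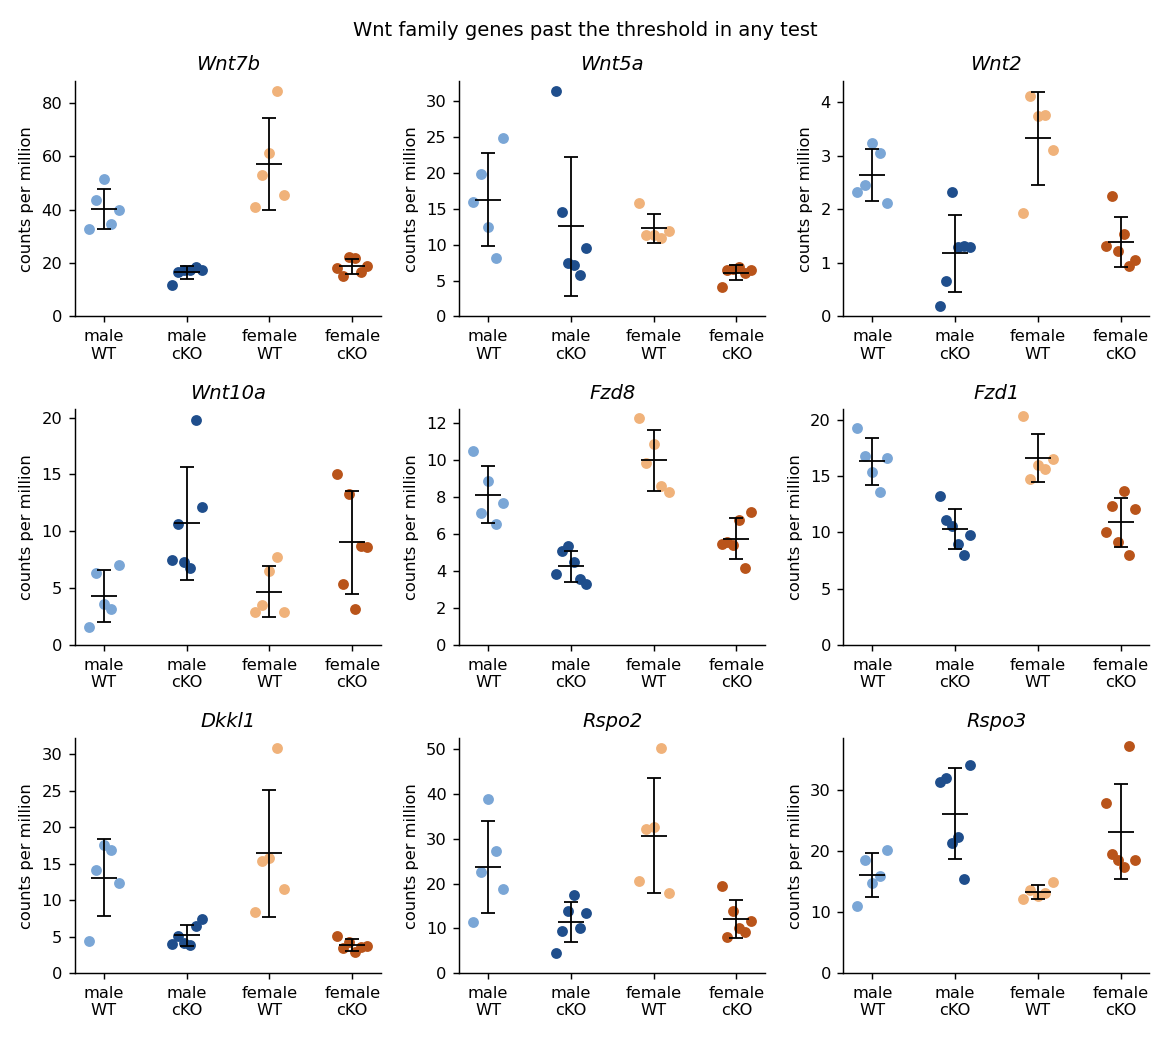
CPM in every library (points) with the mean and SD (bars) for the 9 members past the threshold in any test, by sex and genotype, each axis starting at 0. The cKO libraries lie below all WT libraries of their sex for Wnt7b, Fzd8 and Fzd1, and the single male cKO point of Wnt5a at 31.4 CPM lies above the male WT libraries.

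RefSeq promoter windows (GRCm38.p6, 250 bases before to 50 after the start) matched 27 of the 42 members by symbol, in 30 windows. Of the members past the threshold, Dkkl1, Fzd1 and Wnt2 have a window, and the 250 bases before each start are printed here because these 3 genes fell in females. CpG dinucleotides are in capitals, and all 3 genes lie on the minus strand.
Dkkl1, chr7:45211884-45212133: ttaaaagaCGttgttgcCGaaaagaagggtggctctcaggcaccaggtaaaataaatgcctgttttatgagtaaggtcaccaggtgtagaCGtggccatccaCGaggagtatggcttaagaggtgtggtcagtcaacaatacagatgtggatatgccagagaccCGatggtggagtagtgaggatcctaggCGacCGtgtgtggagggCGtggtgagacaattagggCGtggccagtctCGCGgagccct
Fzd1, chr5:4758217-4758466: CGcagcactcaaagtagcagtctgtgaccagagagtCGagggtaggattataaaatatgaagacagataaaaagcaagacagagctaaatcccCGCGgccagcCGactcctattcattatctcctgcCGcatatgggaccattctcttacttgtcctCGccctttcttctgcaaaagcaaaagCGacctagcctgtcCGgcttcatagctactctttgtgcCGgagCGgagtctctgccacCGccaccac
Wnt2, chr6:18030446-18030695: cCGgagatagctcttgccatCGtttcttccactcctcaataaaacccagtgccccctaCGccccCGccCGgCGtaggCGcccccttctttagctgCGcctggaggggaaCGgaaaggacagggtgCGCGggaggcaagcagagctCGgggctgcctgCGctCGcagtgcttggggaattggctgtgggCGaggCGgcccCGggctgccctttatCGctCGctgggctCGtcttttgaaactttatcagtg
The printed stretches hold 11 CpG sites in Dkkl1, 12 in Fzd1 and 20 in Wnt2, beside a median of 22 over the member windows and 6 over all 32851 windows, each counted over the same 250 bases. Their GC content is 52.4%, 51.2% and 63.6%, beside a median of 68.6% over the member windows and 52.4% over all windows. The TCF/LEF motifs CTTTGAA and CTTTGAT, searched on both strands of the whole window, are in none of these 3, in 2 of 30 member windows (Wnt11 and Wnt5b) and in 8.65% of all windows. The core of the CTCF motif, a factor that stops cohesin on DNA, was searched as CCNNNAGNNGGC on both strands and is in none of these 3, in 6 of 30 member windows (Axin2, Dkk2, Fzd5, Fzd9, Rspo4 and Wnt1) and in 8.61% of all windows. No match says only that these letters are not in this window.

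The test of the difference between the sexes called no member and no gene (0 of 16855, 0% of genes), and 1 of 38 members had an unadjusted p under 0.05 in edgeR, as did 1.04% of all genes; DESeq2 and limma voom also called 0. That member was Axin2, whose fold change in females exceeded that in males by 0.28 on the log2 scale (SE 0.0955, unadjusted p = 0.00769, adjusted p = 1). The difference was -0.75 for Dkkl1, -0.64 for Wnt5a and -0.30 for Wnt7b (unadjusted p = 0.105, 0.197 and 0.205). Calls in females and not in males are therefore no shown difference between the sexes.

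Summed markers varied between libraries of a group, and the fits were repeated with the mean level of marker lists as covariates. With upper-layer excitatory markers in the fit, Wnt7b still fell by 1.21 in males and by 1.18 in females on the log2 scale (adjusted p = 0.00909 and 0.0127), and Fzd8 fell by 1.05 and 1.04 (adjusted p = 0.0269 and 0.0253). Under the same covariate Rspo2 in females went from -1.34 to -0.56 (adjusted p = 0.457), and Rspo3 rose by 1.13 in males and 1.11 in females (adjusted p = 0.00475 and 0.022). Wnt10a passed in females with striatum markers (1.18, adjusted p = 0.0169), cortex markers (1.62, adjusted p = 0.00133), upper-layer markers (2.03, adjusted p = 0.0461) or oligodendrocyte and cortex markers (1.61, adjusted p = 0.00135) in the fit. With oligodendrocyte and cortex markers together, 8 members passed in males and 11 in females, beside 4.28% and 5.89% of all genes. The upper-layer and cortex lists differed by genotype themselves, with 12 of 13 and 14 of 15 markers negative in females. Of 20 oligodendrocyte markers, 20 were positive in females (median log2 fold change 0.418) and 15 in males (0.118), and none passed. Their summed medians were 7810 CPM in female WT and 11000 CPM in female cKO, with overlapping ranges. In male WT and male cKO they were 5490 and 5470 CPM. Fits with the upper-layer, cortex or oligodendrocyte lists therefore cannot separate marker level from genotype. With upper-layer markers the change of Rspo2 in females shrank, as did those of Dkkl1 (from -2.08 to -1.17), Wnt7b (from -1.59 to -1.18) and, slightly, Wnt2 (from -1.25 to -1.16). Those of Fzd8, Fzd1, Wnt5a, Rspo3 and Wnt10a in females grew.

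**Figure D4:**
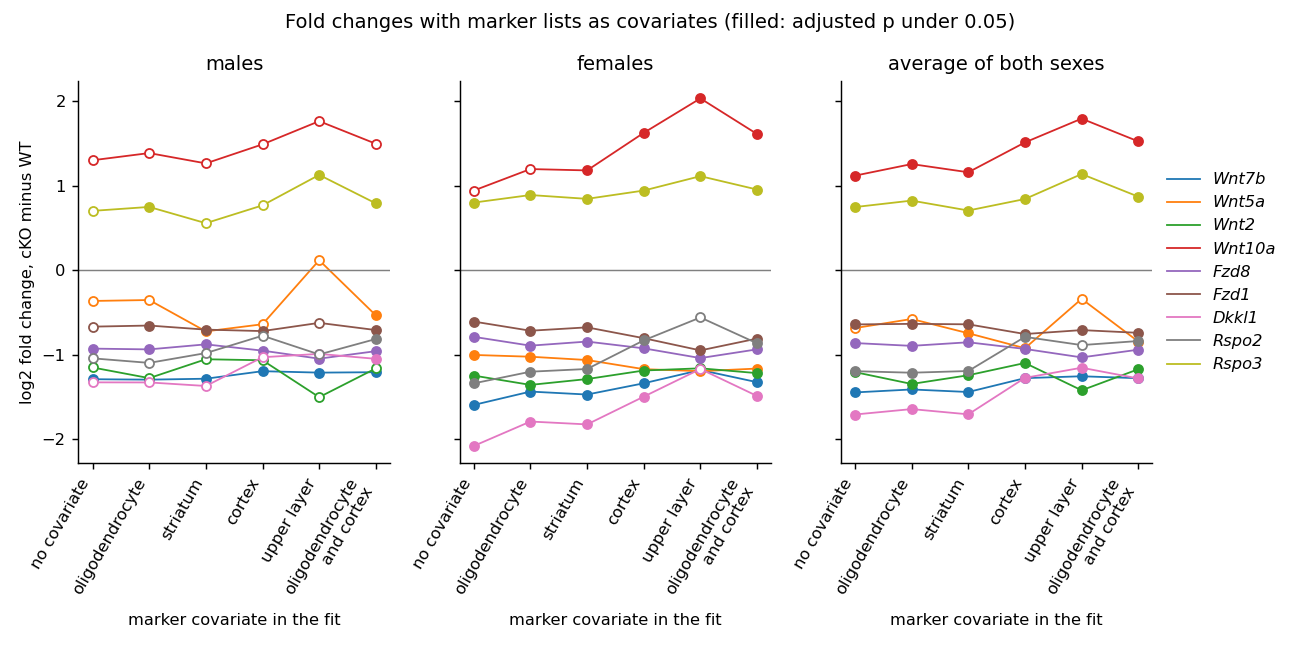
Log2 fold change (cKO minus WT) of the 9 members past the threshold in any test, without and with marker lists as covariates, in males, females and the average of both (filled: adjusted p under 0.05). Wnt7b and Fzd8 stay filled throughout, and Wnt10a in females moves from 0.94 to 2.03 with upper-layer markers. Wnt5a in males moves from -0.36 across 0 to 0.12 with upper-layer markers, and is filled at -0.53 with oligodendrocyte and cortex markers.

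The wider pathway was read from 4 gene lists, whose counts stand beside the shares of all genes tested. Those shares were 0.584% called in males, 3.37% in females and 7.13% over both sexes, and 9.49%, 15.7% and 20% with an unadjusted p under 0.05. Of 31 other surface and secretion genes tested in each sex, 1 fell in males and 2 in females, and none rose in edgeR (unadjusted p under 0.05 for 6 and 11). Trabd2b, also called Tiki2, a protease that inactivates Wnt ligands, had a mean of 5.47 CPM in female WT and 1.58 CPM in female cKO and fell by 1.79 on the log2 scale (SE 0.313, adjusted p = 0.00692); the male change was -1.47 (adjusted p = 0.106), and with upper-layer markers in the fit the female call was lost (adjusted p = 0.138). Apcdd1, a membrane Wnt inhibitor, fell by 0.37 in females (adjusted p = 0.0224), with means of 33.8 and 26 CPM, and this was lost without WT 18, cKO 23 or cKO 27 (adjusted p up to 0.0695), with upper-layer markers in the fit (0.162) and in the shared fit (0.659). Ptk7, a co-receptor of planar cell polarity, fell by 0.43 over both sexes (adjusted p = 0.00135), kept in all 33 alternatives. Its male fall of 0.51 (adjusted p = 0.0353) was kept without cKO 8 alone among the 11 fits that left out a library. Mcc, a negative regulator of β-catenin, fell by 0.36 over both sexes (adjusted p = 0.00162).

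Of 47 cytoplasmic and nuclear genes, 1 fell in each sex and 4 over both sexes, and none rose at the threshold in edgeR (unadjusted p under 0.05 for 6, 8 and 10), counts that lie near the shares of all genes in females and over both sexes. Ctnnb1, the gene of β-catenin, went from 422 to 363 CPM in males and from 452 to 390 CPM in females and fell by 0.22 on the log2 scale over both sexes (SE 0.057, adjusted p = 0.0216), a call lost without male WT 3 or WT 6 and with upper-layer markers in the fit (adjusted p = 0.257). Nlk, a kinase that acts on TCF/LEF factors, fell by 0.63 in females (adjusted p = 0.0179), a call lost without WT 19, and with upper-layer markers in the fit its change was -0.18 (adjusted p = 0.503). Tle1, a co-repressor of TCF/LEF factors, fell by 0.31 over both sexes (adjusted p = 9.55e-05), kept in all 33 alternatives, and its male fall of 0.39 (adjusted p = 0.044) was kept in 2 of 11 fits that left out a library. Csnk1g1, a kinase that acts on Lrp6, fell by 0.24 over both sexes (adjusted p = 0.00163).

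Among known target genes, 15 of 26 had a positive fold change in males and 19 of 27 a negative one in females, with medians of 0.0222 and -0.187 on the log2 scale; the test of the difference between the sexes called none of 27 in edgeR (unadjusted p under 0.05 for 0). None of 26 passed in males in edgeR (unadjusted p under 0.05 for 5), 2 of 27 fell in females (Id2 and Apcdd1), and over both sexes 2 rose and 2 fell. Id2, an inhibitor of helix-loop-helix factors that several pathways induce, had a mean of 87.4 CPM in female WT and 43.2 CPM in female cKO and fell by 1.01 on the log2 scale (SE 0.104, adjusted p = 0.000206). Over both sexes Ccnd1, the gene of cyclin D1, fell by 0.38 (adjusted p = 0.0278), whereas Slc2a1, the glucose transporter of brain vessels, rose by 0.32 (adjusted p = 0.0237) and Bmp4, a bone morphogenetic protein, rose by 0.69 (adjusted p = 0.0486). The call of Bmp4 was kept in 12 of 33 alternatives and that of Ccnd1 in 25 of 33, Ccnd1 losing it without male WT 3 or 4, female WT 16, 19 or 25, or female cKO 20 or 22. Of 27 genes tested from the planar cell polarity list, Ptk7 fell in males and none rose in either sex. Prkca, a protein kinase C gene placed in that list, fell by 0.37 in females (adjusted p = 0.0241). The Prkca call was lost without cKO 27, with upper-layer markers in the fit (adjusted p = 0.132) and in the shared fit of all 4 groups (0.67). The median log2 fold change over both sexes was -0.0325 for the surface genes, -0.0351 for the cytoplasmic and nuclear genes, -0.0956 for the targets and -0.0594 for the polarity genes, beside 0.0074 over all genes.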

How the data were processed

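RNA was sequenced from 22 mice in 4 groups set by the labels. The authors deposited raw read counts per gene in 1 table per sex. Per the submitters' processing notes, the tools were cutadapt, STAR, HTSeq and DESeq2 and the build GRCm39; no order, version or strand setting is given in the sources used here. The authors also deposited a log2 fold change, a p-value and an adjusted p-value per gene, and 22 columns of normalized counts; the columns were not used. In the authors' deposited table, 5 members lay under 0.05 in males (1.5% of all genes did) and 9 in females (4.17%). The count column numbered 20 was used as female cKO by its name.

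Genes kept by edgeR's filterByExpr (minimum count 10, total 15) were compared by the quasi-likelihood method of edgeR 4.0.16 after TMM scaling, with limma 3.58.1 and DESeq2 1.42.0 as alternatives in R 4.3.3. P-values were adjusted by Benjamini-Hochberg over all genes tested, with a threshold of 0.05. Each sex was fitted alone; the difference and the average came from a fit of all 4 groups. Standard errors were obtained by dividing the log2 fold change by the root of F. CPM were computed by edgeR from the TMM-scaled totals of all 22 libraries. Replicates of a group differed beyond sampling noise (50 pairs, chi-square over its degrees of freedom at least 5.81), so no library was counted as a repeat of another. P-values set the difference between groups against the spread between libraries of a group. The tests were checked on simulated counts. Counting limits cover counting error only. Exon lengths are from another build than the counts.

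Members and gene lists were chosen with earlier results of these data known. Named in full are Smc3, members past the threshold in any test, and members with an unadjusted p under 0.05 in the average; from the pathway lists, genes past the threshold are named. Alternatives were other scaling, filters, tools and covariates, a shared fit, and leaving out each library.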

Additional observations from a re-analysis of the deposited data

Results flagged for a closer look

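In 60 groups of libraries, 15 named members in 4 groups each, 4 had a library apart from the others by Dixon's gap test, which chance flags in about 1 of 20 groups. Wnt5a was flagged in 3 groups. It reached 31.4 CPM in male cKO 8, with the next library at 14.5 CPM, 15.8 CPM in female WT 16, with the next at 11.9 CPM, and 4.07 CPM in female cKO 20, with the next at 6.04 CPM. Wnt7b was 11.7 CPM in male cKO 8, with the next library at 16.6 CPM, and leaving that library out kept the male call of Wnt7b.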

How the results depend on the processing

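Members past the threshold numbered 2 in males, and 5 with DESeq2; 4 with limma voom, an oligodendrocyte covariate, a shared fit of all 4 groups or an upper-layer covariate; and 8 with oligodendrocyte and cortex covariates. Leaving out each library gave 1 to 3 in males, 6 to 8 in females, 0 for the difference between the sexes and 8 to 11 for the average. In females 8 became 5 in the shared fit, and in the average 8 became 14 with oligodendrocyte and cortex covariates. Member counts stayed within 1.5 times in the other settings. Over all genes, 94 calls in males became 334 with DESeq2 and 341 with limma voom, 274 with the oligodendrocyte covariate, 276 in the shared fit, 310 with the upper-layer covariate, 151 with the striatum or the cortex covariate, 178 without WT 1 and cKO 8 together and 689 with oligodendrocyte and cortex covariates; in females 543 became 919 with DESeq2, 1136 with limma voom, 878 with the cortex covariate, 949 with oligodendrocyte and cortex covariates and 294 in the shared fit; in the average 1201 became 2335 with limma voom, 1909 with the upper-layer covariate and 2301 with oligodendrocyte and cortex covariates. The difference between the sexes gave 0 in every setting. With the upper-layer covariate the sign turned for Fzd10 in males (0.079), Wnt5a in males (0.12) and Wnt9a in females (0.040), none of them past the threshold; the cause was not tested. Of 1766 single-gene values, 1607 kept direction and side of the threshold, 96 lost a call, 60 gained it and 3 changed sign. The covariates of cortex and upper layers, the pair of covariates and leaving out male WT 1 with cKO 8 were chosen after seeing the data. Depth limits the scarce members, of which 6 were not tested within a sex. No paired analysis was possible because no replicate number occurs in more than 1 group.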
